A study of Mus musculus with 4 samples.

Results

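Tumor-infiltrating natural killer (NK) cells of the 20967 melanoma model were examined by single cell RNA sequencing. They were the cells carrying the NK cluster name in the deposited cell annotation, 111 of 4108 CD45+ cells in all. Of these, 107 came from control tumors and 4 from tumors treated with the glucocorticoid (GC) clobetasol propionate. The 20967 melanoma line, a single line, was derived on a C57BL/6 background with the alleles Tyr::CreERT2+/o, in which the Tyr promoter drives an inducible Cre in melanocytes, and Nras+LSL-G12D. Hosts of both groups were wild type C57BL/6 mice with an intact immune system, so the lymphocytes carried neither allele. Cells of each of the 5 control and 5 GC tumors were stained with a separate hashtag antibody, whose barcode names the tumor. Sorted live CD45+ cells of a group were pooled into 1 channel, with 17100 control and 3500 GC cells loaded, so treatment and channel cannot be told apart. The labels give neither the age of the mice nor the length of treatment.

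NK cells are innate lymphocytes that kill stressed or transformed cells without a rearranged antigen receptor. Their response is set by the balance of germline-encoded activating and inhibitory receptors, in mice many of them of the Ly49 family, which bind MHC class I or its viral mimics. They share their cytotoxic program with CD8+ T cells, and in tissues they lie close to other group 1 innate lymphoid cells, from which Eomes and integrin patterns are used to tell them apart.

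The control NK cells held 28, 27, 28, 18 and 6 cells in tumors 1 to 5, with a median of 8736 UMIs (unique molecular identifiers, each counting 1 captured RNA molecule) and 2949 genes per cell. The tumor 5 values thus rest on 6 cells. They were compared with the control cells of clusters CD8 1 (517 cells, median 6342 UMIs), CD8 2 (269 cells, 7889 UMIs) and γδT (43 cells, 7136 UMIs, 5 to 13 cells a tumor). No barcode was shared between the libraries of the 2 channels. Levels are UMIs per 10000 UMIs of a cell, averaged over the cells of a class in a tumor. Since the clusters were drawn from these same genes, differences between clusters are described and not tested.

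The 4 genes chosen as NK markers set these cells apart. Ncr1 encodes the activating receptor NKp46 and lies at chr7:4337724-4345164 (GENCODE annotation of GRCm38, the mm10 build of the files, plus strand). Its NK level was 3.54, 2.45, 1.96, 2.59 and 5.60 per 10000 in control tumors 1 to 5, and it was 0.000653 in CD8 1, 0.00217 in CD8 2 and 0 in γδT cells. Every NK value was above every T cell value. A UMI of Ncr1 was present in 74.8% of NK cells and in at most 1.98% of the cells of any other cluster, the CD4 cluster.

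Klrb1c, encoding NK1.1 (chr6:128778485-128789215, minus strand), had NK levels of 6.40, 4.53, 7.62, 7.04 and 6.81, against 0.108 in CD8 1, 0.01 in CD8 2 and 0 in γδT cells. Klra7, encoding the inhibitory receptor Ly49G2 (chr6:130218605-130233322, minus strand), had NK levels of 3.88, 3.77, 4.16, 4.39 and 11.5, with tumor 5 standing above the other 4, and averaged 0.0214 in CD8 1, 0.0216 in CD8 2 and 0 in γδT cells. Both genes were also found in the CD4 cluster, where 18.6% and 16.6% of cells held a UMI, so that of the 4 markers Ncr1 was the least often found outside NK cells. Gzma, encoding granzyme A (chr13:113093825-113100981, minus strand), reached 22.4, 14.2, 55.1, 36.9 and 32.4 in NK cells and averaged 1.89 in CD8 1 and 1.40 in CD8 2 cells. Gzma was not confined to NK cells, since the small CD8 3 cluster averaged 5.51. In the γδT cells all 4 markers had 0 UMIs. Against a floor of 3 UMIs over those cells, NK levels were at least 28.0-fold higher for Ncr1 and at least 289-fold higher for Gzma.

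Tumor-associated macrophages (TAMs), which do not express these receptors, gave the background of free RNA. A UMI of Ncr1, Klrb1c, Klra7 and Gzma was found in 0.277%, 1.66%, 1.24% and 2.35% of 723 TAMs at a median of 12883 UMIs. In NK cells, these shares were 74.8%, 93.5%, 47.7% and 60.7% at fewer UMIs per cell. After each cell was thinned to 2000 UMIs, which left out 1 NK cell and 13 TAMs, the NK shares were 33.0%, 59.4%, 31.1% and 58.5%. The TAM shares were then 0%, 0.282%, 0.141% and 0.423%. The 10 leading genes of the cluster against all other control cells were Klra4, Klra8, Gzma, Gzmc, Klrb1c, Clnk, Ncr1, Car2, Klra7 and Klra9, so that all 4 markers stood among them.

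The 250 bases upstream of the first listed RefSeq start of the 4 marker genes (GRCm38.p6) are shown because these are the genes that mark the cells. The windows of Klrb1c and Klra7 lie inside the gene spans given above, which begin further upstream. Capitals mark matches to 3 short motifs, searched on both strands: the T-box core TCACACC, the RUNX core TGTGGT and the ETS-type core GGAAGT, which may overlap each other.
Ncr1, chr7:4337465-4337714, plus strand: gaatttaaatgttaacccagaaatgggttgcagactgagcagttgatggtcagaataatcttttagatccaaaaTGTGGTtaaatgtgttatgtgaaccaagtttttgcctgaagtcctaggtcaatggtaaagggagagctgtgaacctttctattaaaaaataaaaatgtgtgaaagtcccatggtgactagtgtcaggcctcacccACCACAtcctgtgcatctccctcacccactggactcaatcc
Klrb1c, chr6:128788642-128788891, minus strand: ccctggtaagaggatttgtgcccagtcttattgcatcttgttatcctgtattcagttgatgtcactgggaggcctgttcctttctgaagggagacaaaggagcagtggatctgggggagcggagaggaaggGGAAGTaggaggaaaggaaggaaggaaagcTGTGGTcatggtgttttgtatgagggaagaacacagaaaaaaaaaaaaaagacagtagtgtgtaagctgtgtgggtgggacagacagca
Klra7, chr6:130231688-130231937, minus strand: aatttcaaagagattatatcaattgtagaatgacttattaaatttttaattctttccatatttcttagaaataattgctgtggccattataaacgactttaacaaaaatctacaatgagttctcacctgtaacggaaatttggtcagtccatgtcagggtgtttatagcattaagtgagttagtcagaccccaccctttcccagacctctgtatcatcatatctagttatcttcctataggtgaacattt
Gzma, chr13:113100982-113101231, minus strand: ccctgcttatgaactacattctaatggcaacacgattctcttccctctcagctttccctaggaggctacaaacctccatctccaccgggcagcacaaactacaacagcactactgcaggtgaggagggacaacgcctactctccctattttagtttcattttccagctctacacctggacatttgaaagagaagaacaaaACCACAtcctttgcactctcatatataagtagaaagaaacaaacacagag
The RUNX core stands at 176 and 41 bases upstream of the start in Ncr1, at 89 in Klrb1c and at 50 in Gzma, and the ETS-type core at 119 in Klrb1c. Klra7 held none of the 3 in this window, and the T-box core was in none of the 4. Of 27025 upstream windows of the same length, 14.2% held the RUNX core, 19.99% the ETS-type core and 3.31% the T-box core. Of the 75 genes with a window among those higher in NK cells than in all 3 other classes (below), the shares were 17.3%, 22.7% and 5.33%. A match describes the sequence only.

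Across genes, 6299 passed a mean of 0.2 per 10000 over the 4 classes. A gene was called where the mean log2(level + 0.1) differed by 1 or more and the 5 tumors of the classes did not overlap. Against CD8 1, 220 genes (3.49%) were higher and 282 (4.48%) lower in NK cells. Against CD8 2, the numbers were 264 (4.19%) and 309 (4.91%), and against γδT cells 327 (5.19%) and 253 (4.02%). Higher than in all 3 were 96 genes (1.52%), led by Klra4, Klra8, Gzma, Klrb1c, Lrmda, Klra7, Car2, Klrb1b, Ncr1 and Gzmc. Lower than in all 3 were 68 (1.08%), led by Pdcd1, Sgms1, Fam169b, Bcl11b, Slamf1, Icos, Cxcr6, Adam19, Trac and Rgcc. Over all 6299 genes the median log2 difference was -0.08 against CD8 1, -0.00236 against CD8 2 and 0.16 against γδT cells.

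**Figure D1:**
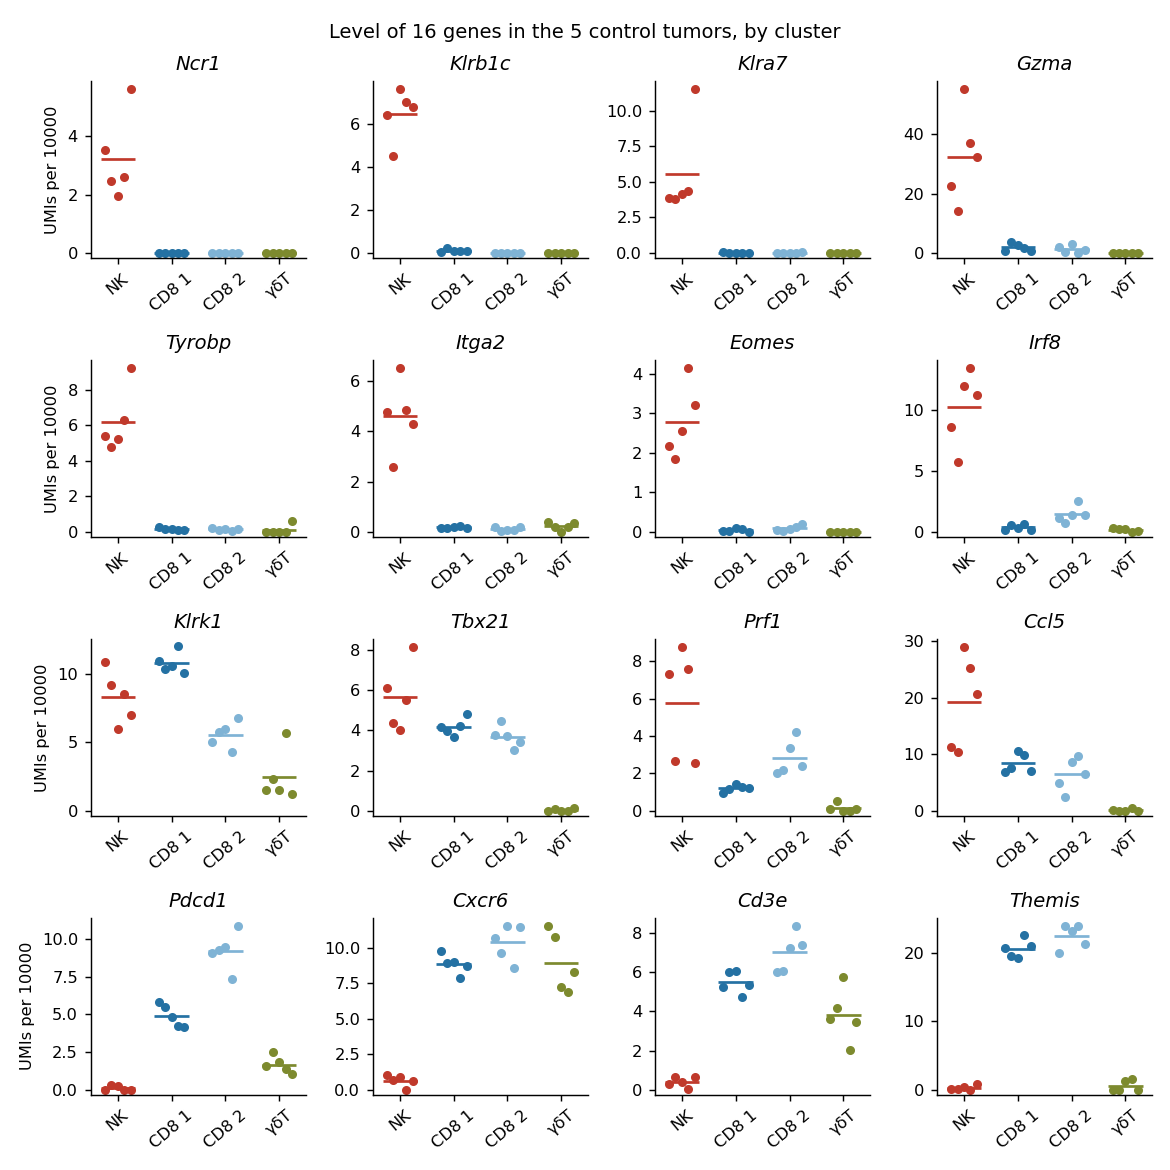
Level of 16 genes (UMIs per 10000) in the 5 control tumors by cluster; each point is the mean over 1 tumor's cells of that cluster and the line the mean of the 5 tumors. Ncr1, Klrb1c, Klra7, Gzma, Tyrobp, Itga2, Eomes and Irf8 stood above the T cell clusters, Klrk1 and Tbx21 overlapped those of CD8 cells, and Pdcd1, Cxcr6 and Cd3e lay below all 3.

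Genes that were not among the fixed NK markers led this set as well. Car2, encoding carbonic anhydrase 2, had NK levels of 4.11, 4.79, 2.84, 4.10 and 4.06 and averaged at most 0.0204 in the 3 T cell classes. Lrmda had NK levels of 9.04, 9.08, 6.89, 8.45 and 12.1, against 0.149 in CD8 1, 0.0851 in CD8 2 and 0.0983 in γδT cells. Both were high in all 5 NK tumors, and no T cell tumor overlapped them. Lrmda was not confined to NK cells, as 97.2% of TAMs held a UMI of it against 80.4% of NK cells. Car2 was found in 2.90% of TAMs. Among the lower genes, Slamf1, encoding a co-stimulatory receptor of T cells, had 0 UMIs in the 107 control NK cells. It was at least 68.5-fold lower than in CD8 1 and at least 57.9-fold lower than in CD8 2 cells, against a floor of 3 UMIs over the NK cells.

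Of the 14 listed activating receptors, 4 were higher in NK than in CD8 1 cells and 2 lower, beside 3.49% and 4.48% of all genes. The list median was 0.38 on the log2 scale. Against CD8 2 the counts were 4 and 2 (4.19% and 4.91% of all genes), and against γδT cells 10 and 0 (5.19% and 4.02%), with medians of 0.32 and 2.28. Cd244a, encoding 2B4, a receptor for CD48, had NK levels of 3.45, 3.17, 2.55, 2.92 and 3.46 and averaged 0.294 in CD8 1, 0.199 in CD8 2 and 0 in γδT cells. A UMI of it was also found in 52.6% of TAMs. Klrb1f, an NKR-P1 receptor, averaged 1.5 ± 0.377 in NK cells (SD, n = 5 tumors, as below), against 0.0323 in CD8 1, 0.0345 in CD8 2 and 0.309 in γδT cells. These 2, with Ncr1 and Klrb1c, were the 4 higher in NK cells than in every class.

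Klrk1 and Klrd1, which activated CD8 T cells also express, were not called between NK and CD8 cells. Klrk1, encoding NKG2D, had NK levels of 10.8, 9.19, 6.00, 8.5 and 7.03 and CD8 1 levels of 10.9, 10.3, 10.6, 12.0 and 10.1, which overlapped. Klrd1, encoding the CD94 chain that pairs with NKG2 receptors, was 6.53 ± 1.45 in NK, 5.62 ± 0.191 in CD8 1 and 6.02 ± 0.542 in CD8 2 cells. In γδT cells it was 0.0437 ± 0.0977, below every NK tumor. Cd226, encoding the adhesion receptor DNAM-1, was lower in NK cells, at 3.22 ± 1.05 against 8.06 ± 1.18 in CD8 1 and 6.40 ± 1.27 in CD8 2 cells. The call against CD8 2 was at the limit of 2-fold and was lost, among other settings, without control tumor 4.

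Among the 4 classes compared, the Ly49 genes that passed the filter were higher in NK cells. The list of 16 genes also held the receptor genes Klre1, Klri1 and Klri2, which are not Ly49 genes. Of the 16, 14 were in the table and 8 passed the filter on low levels, which the NK cells alone could carry them through. They were Klra1, Klra3, Klra4, Klra7, Klra8, Klra9, Klre1 and Klri2. These 8 were higher in NK cells than in each of the 3 classes, as 1.52% of all genes were. The median over the 14 was 2.33 against CD8 1 and 2.05 against CD8 2 on the log2 scale, and 3.95 and 3.51 with genes at 0 in the T cells set to their bound of 3 UMIs over the class. Of the 14, 13 had 0 UMIs in γδT cells.

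Klra4 and Klra8 encode the activating receptors Ly49D and Ly49H, which signal through DAP12. Klra4 had NK levels of 5.30, 3.82, 9.18, 7.55 and 8.01 and averaged 0.00616 in CD8 1 cells. Klra8 had NK levels of 9.36, 4.24, 4.72, 6.08 and 6.98 and averaged 0.00810 in CD8 1 cells. Both were high in all 5 tumors. Among the inhibitory members, Klra9 (Ly49I) had NK levels of 3.47, 1.63, 3.53, 3.64 and 0.601 and Klra3 (Ly49C) of 1.44, 0.884, 0.915, 1.22 and 2.33. Klra1 (Ly49A) had NK levels of 1.08, 0.830, 1.81, 1.59 and 8.30, the tumor 5 value coming from 3 of 6 cells. Klra1 and Klra7, both highest in tumor 5, were also called in all 3 comparisons without it. Klra5, Klra6 and Klra10 were below the filter and had UMIs in 2, 8 and 12 NK cells. These are near-identical genes, so counts may be split between them. Of the 90-base windows in the last 500 bases of their annotated transcripts, none in Klra1, Klra4, Klra5, Klra6, Klra7 or Klra8 recurred exactly in another of the 9 genes. In Klra9, Klra3 and Klra10, 4.74%, 5.15% and 10.5% did, so that these 3 are the less certain.

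Ly49 transcripts were patchy from cell to cell, as known for a family that each NK cell expresses in its own combination. Of the 107 control NK cells, 25 held a UMI of none of 9 Ly49 genes, 11 of 1, 21 of 2, 15 of 3, 15 of 4, 17 of 5 and 3 of 6. A UMI of any of the 9 was found in 76.6% of NK cells, 29.6% of the 253 cells of the CD4 cluster, 5.58% of CD8 2, 3.48% of CD8 1 and 2.33% of γδT cells, and 2.90% of TAMs. Ly49 transcripts were thus not confined to NK cells, the CD4 cluster holding them most often after these. Klra4 was present in 35 NK cells, which held a median of 14 UMIs, and Klra8 in 49 with a median of 10. The share of cells with Klra4 moved little with depth, being 32.7% at full depth and 30.2% after thinning to 2000 UMIs.

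**Figure D2:**
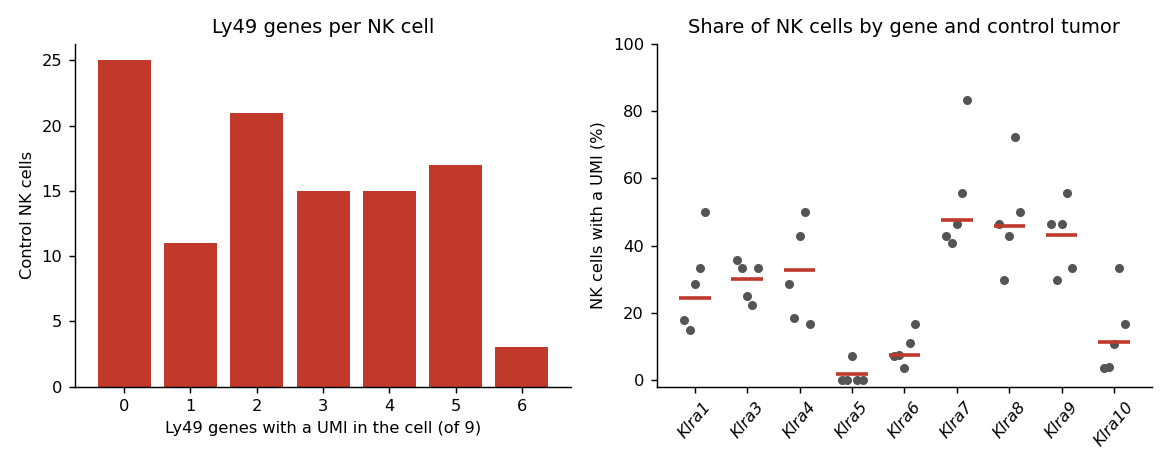
Left, number of control NK cells (bars) by how many of 9 Ly49 genes had a UMI in the cell. Right, share of NK cells (%) with a UMI of each gene, with a point per control tumor and a line for all 107 cells; Klra7, Klra8 and Klra9 were the most often found, in 47.7%, 45.8% and 43.0% of cells.

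Of the 14 inhibitory receptors listed, 1 was higher than in CD8 1 cells and 5 were lower, beside 3.49% and 4.48% of all genes. The counts were 1 and 7 against CD8 2 (4.19% and 4.91%), and 4 and 1 against γδT cells (5.19% and 4.02%). The list medians were -0.65 against CD8 1, -0.77 against CD8 2 and 1.02 against γδT cells (0.84 with genes at 0 at their bound), the last with the opposite sign. The receptor that was higher in all comparisons was Klrb1b, which binds a lectin on healthy cells, with NK levels of 7.65, 10.3, 8, 7.41 and 3.48 and averages of 0.133 in CD8 1, 0.442 in CD8 2 and 0 in γδT cells. It was also found in 44.4% of TAMs, against 75.7% of NK cells. Most of the lower ones were checkpoint receptors of activated T cells. Pdcd1, encoding PD-1, had NK levels of 0, 0.282, 0.227, 0 and 0, whereas CD8 1 tumors had 5.80, 5.50, 4.81, 4.24 and 4.14 and CD8 2 tumors 9.06, 9.28, 9.47, 7.33 and 10.9. It had a UMI in 6 of 107 NK cells. Havcr2 (TIM-3) averaged 0.0223 in NK cells against 2.75 in CD8 1 and 4.71 in CD8 2 cells, and Lag3 0.171 against 1.33 and 4.76. Ctla4 was present in NK cells at 0.95, 0.999, 0.971, 0.917 and 1.18, a narrow range, and averaged 5.00 in CD8 1 and 18.0 in CD8 2 cells. Klrc1, encoding the inhibitory NKG2A, was 4.21 ± 1.38 in NK and 7.70 ± 0.561 in CD8 1 cells and was not called there. Its call as lower than in CD8 2 cells was lost without control tumor 3, 4 or 5.

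The molecules behind the receptors differed in kind. Of 21 signaling adaptors and kinases, 7 were higher and 4 lower than in CD8 1 cells, 8 and 5 in CD8 2, and 8 and 3 in γδT cells. These counts stand beside 3.49% and 4.48%, 4.19% and 4.91%, and 5.19% and 4.02% of all genes. The list medians were 0.48, 0.55 and 0.87. Tyrobp, encoding DAP12, the adaptor of Ly49D and Ly49H, had NK levels of 5.39, 4.77, 5.25, 6.27 and 9.21 against 0.164 in CD8 1, 0.142 in CD8 2 and 0.124 in γδT cells. Fcer1g, encoding the FcRγ chain that pairs with NKp46, had NK levels of 6.62, 6.20, 8.48, 8.21 and 9.23 against 0.291 in CD8 1, 0.177 in CD8 2 and 0.223 in γδT cells. Both are also myeloid genes, and 94.6% and 96.3% of TAMs held a UMI of them. The macrophage markers are given below and were at T cell levels in NK cells.

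Txk, a Tec-family kinase, had NK levels of 10.7, 8.27, 8.20, 12.5 and 7.40 and averaged 0.509 in CD8 1, 0.608 in CD8 2 and 0.874 in γδT cells. Lyn, a Src-family kinase better known from B and myeloid cells, was 4.28 ± 0.600 in NK cells against 0.309 in CD8 1, 0.406 in CD8 2 and 0.168 in γδT cells. Syk, a kinase recruited by these adaptors, was 1.35 ± 0.136 against 0.0947 in CD8 1, 0.0334 in CD8 2 and 0.0181 in γδT cells. Lyn and Syk were also found in 98.8% and 92.5% of TAMs. Plcg1, the phospholipase used by the T cell receptor, went the other way with UMIs in 3 NK cells and averages of 1.14 in CD8 1, 0.962 in CD8 2 and 1.33 in γδT cells. Cd247 (CD3ζ), Fyn and Hcst (DAP10), which serve both lineages, were not called in any comparison, at NK levels of 3.86 ± 0.697, 8.20 ± 2.34 and 2.86 ± 0.403.

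Of 26 transcription factors of lymphocytes, 6 were higher and 2 lower than in CD8 1 cells. The counts were 6 and 3 in CD8 2, and 8 and 4 in γδT cells. The medians were 0.33, -0.02 and 0.08. With genes at 0 at their bound, the last was -0.02 over 24 genes. Genes at 0 in γδT cells with at most 3 UMIs in NK cells had no bound and were left out. The shares over all genes were 3.49% and 4.48%, 4.19% and 4.91%, and 5.19% and 4.02%. Eomes, a T-box factor that marks NK cells among group 1 innate lymphoid cells, had NK levels of 2.17, 1.85, 2.55, 4.14 and 3.19 against 0.0386 in CD8 1, 0.0981 in CD8 2 and 0 in γδT cells. Irf8, needed for NK cell maturation, had NK levels of 8.64, 5.75, 12.0, 13.4 and 11.3 against 0.376 in CD8 1, 1.44 in CD8 2 and 0.186 in γδT cells. Bach2, a repressor of effector programs, had NK levels of 10.6, 12.5, 13.2, 15.2 and 7.63 against 2.78 in CD8 1, 4.28 in CD8 2 and 4.36 in γδT cells. These 3 were the factors higher than in all 3 classes.

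Tbx21, encoding T-bet, was shared with CD8 cells, at 5.64 ± 1.64 in NK, 4.17 ± 0.405 in CD8 1 and 3.68 ± 0.536 in CD8 2 cells. Id2 and Runx3 were likewise not called against CD8 cells, with NK averages of 11.4 and 6.13. All of these were higher than in γδT cells, where Tbx21 averaged 0.0435, Id2 2.87 and Runx3 1.79. Bcl11b, which fixes T lineage commitment, had NK levels of 0.372, 0.228, 0.201, 0 and 0.353 and averaged 5.92 in CD8 1, 4.08 in CD8 2 and 6.77 in γδT cells. Rora was lower than in all 3, at 4.25, 3.81, 3.90, 1.21 and 1.25 in NK cells against 13.1 in CD8 1, 23.0 in CD8 2 and 20.4 in γδT cells.

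**Figure D3:**
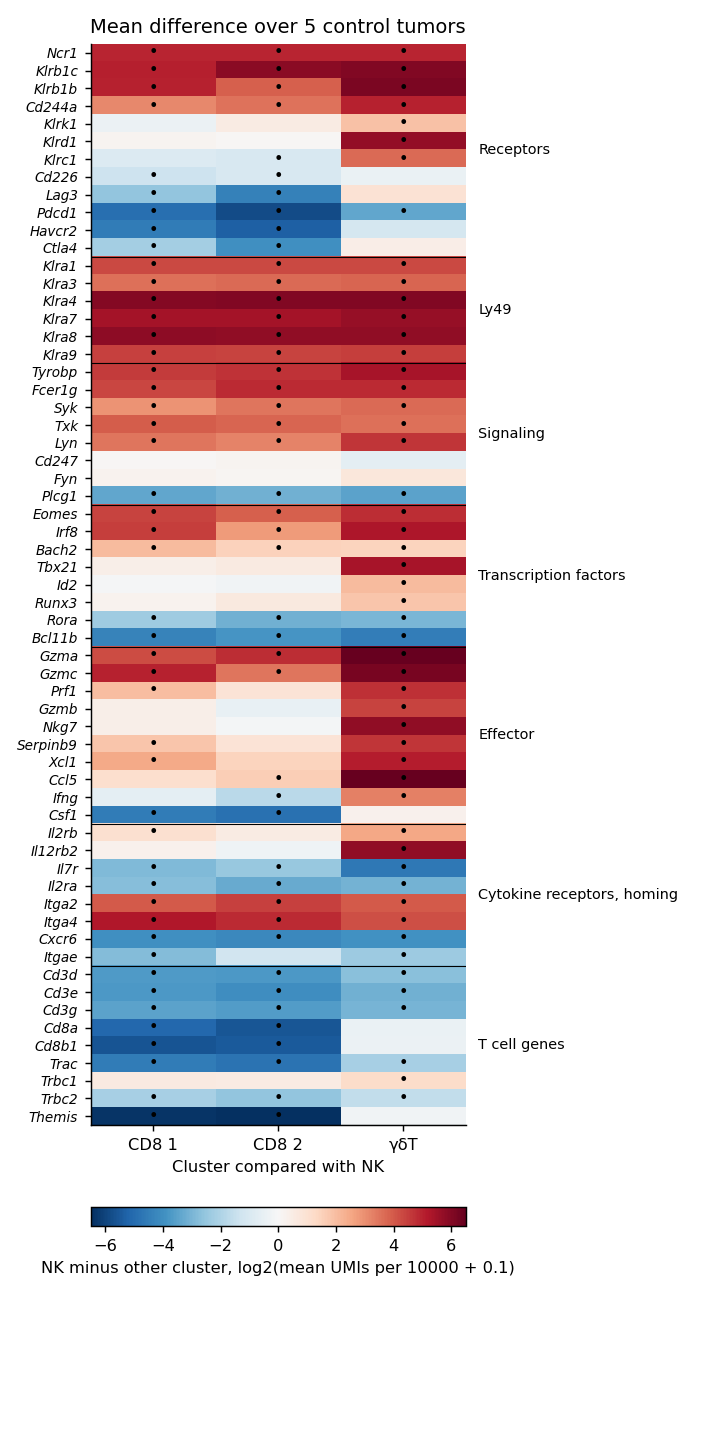
Mean difference over 5 control tumors (NK minus other cluster, log2(mean UMIs per 10000 + 0.1)) for genes of 7 groups; red is higher and blue lower in NK cells, and a dot marks a difference of 2-fold or more with no overlap between tumors. Differences of genes at 0 in a cluster depend on the 0.1 that was added; Ly49 genes, Tyrobp and Eomes were higher throughout, whereas Klrk1, Tbx21 and Nkg7 were called only against γδT cells.

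Among 23 cytotoxic granule genes and death ligands, 5 were higher and 1 lower than in CD8 1 cells, 2 and 3 in CD8 2, and 10 and 0 in γδT cells. Over all genes the shares called were 3.49% and 4.48%, 4.19% and 4.91%, and 5.19% and 4.02%. The medians were 0.37, 0.04 and 1.20. With genes at 0 at their bound and those without a bound left out, the last was 2.34 over 20 genes. Besides Gzma, Gzmc was the other granzyme higher in every comparison, with NK levels of 10.4, 22.1, 16.3, 17.9 and 5.39. It was present in 39 of 107 NK cells, 1 of which held 628 UMIs, and its call against CD8 2 was lost to overlap between tumors when UMIs were summed over cells, while the log2 difference was 3.47 and then 3.61. The granzyme C and F genes are near-identical neighbors that the counting could split. Gzmf had 1 UMI-bearing NK cell and averaged 1.26 in CD8 2 cells.

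Prf1, encoding perforin, had NK levels of 7.32, 2.65, 8.76, 7.6 and 2.58, above all CD8 1 tumors at 0.960, 1.14, 1.44, 1.26 and 1.21 but overlapping CD8 2 tumors at 2.02, 2.17, 3.35, 4.20 and 2.38. Serpinb9 and Serpinb6b, serine protease inhibitors of the family that guards killer cells from granule proteases, averaged 5.66 ± 1.58 and 4.15 ± 1.41 in NK cells. They averaged 1.59 and 0.573 in CD8 1 cells and were called higher there and against γδT cells. Gzmb was 5.84 ± 2.53 in NK, 4.20 ± 1.14 in CD8 1 and 8.18 ± 3.73 in CD8 2 cells and was called only against γδT cells, as was Nkg7, a granule membrane protein, at 9.64 ± 4.35.

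Of 17 cytokines and chemokines, 1 was higher and 3 were lower than in CD8 1 cells, 1 and 3 in CD8 2, and 5 and 1 in γδT cells, where 3.49% and 4.48%, 4.19% and 4.91%, and 5.19% and 4.02% of all genes were called. The single higher gene against each CD8 cluster is near those shares. The list had medians of -0.59, -1.02 and 0.08. With genes at 0 at their bound and those without a bound left out, the last was -0.02 over 15 genes. Xcl1, which attracts XCR1+ dendritic cells, had NK levels of 2.96, 4.43, 4.94, 2.05 and 3.03 against 0.553 in CD8 1, 1.29 in CD8 2 and 0 in γδT cells. Its call against CD8 1 was lost to overlap without NK cells that held a CD3 or CD8 UMI, while the log2 difference was 2.46 and then 2.14. Ccl5 had NK levels of 11.3, 10.4, 29.0, 25.3 and 20.6 and averaged 8.37 in CD8 1, 6.44 in CD8 2 and 0.106 in γδT cells, and its call against CD8 2 was lost to overlap with summed UMIs (log2 difference 1.59 and then 1.27). Ifng was lower than in CD8 2, at 1.11 ± 0.219 against 4.11 ± 1.40, and did not separate from CD8 1 at 1.78 ± 0.411. Csf1, a macrophage growth factor, had UMIs in 2 NK cells and averaged 2.73 in CD8 1 and 3.43 in CD8 2 cells.

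For 20 cytokine receptors, 1 was higher and 3 lower than in CD8 1, 0 and 3 in CD8 2, and 5 and 4 in γδT cells, beside 3.49% and 4.48%, 4.19% and 4.91%, and 5.19% and 4.02% of all genes. The 1 and 0 higher than in CD8 cells are near those shares, and the list had medians of -0.30, -0.23 and -0.39. Il2rb, the β chain through which NK cells read IL-15, had NK levels of 11.4, 11.6, 14.4, 11.1 and 10.3 and CD8 1 levels of 5.86, 5.53, 5.92, 5.27 and 5.31, and was the 1 gene higher than in CD8 1. Il12rb2 and Il18rap, chains of the IL-12 and IL-18 receptors, were at 6.68 ± 0.878 and 6.55 ± 2.18 and were called only against γδT cells. Il7r was lower than in all 3 classes, at 0.373, 2.24, 0.705, 0.109 and 0.849 in NK cells against 5.19 in CD8 1, 3.96 in CD8 2 and 18.0 in γδT cells. Il2ra, the high-affinity IL-2 receptor chain, was also lower than in all 3, at 0.452, 1.23, 1.05, 0 and 0 against 2.59 in CD8 1, 3.73 in CD8 2 and 3.69 in γδT cells.

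Homing and adhesion genes differed in both directions. Of 26, 6 were higher and 4 lower than in CD8 1, 7 and 2 in CD8 2, and 9 and 3 in γδT cells, with medians of -0.34, 0.04 and 0.94 (0.65 with genes at 0 at their bound). Beside these counts, 3.49% and 4.48%, 4.19% and 4.91%, and 5.19% and 4.02% of all genes were called. Itga4, the α4 integrin chain, had NK levels of 12.0, 7.55, 8.54, 9.36 and 12.1 against 0.193 in CD8 1, 0.370 in CD8 2 and 0.846 in γδT cells. Itga2, encoding the NK marker CD49b, had NK levels of 4.78, 2.6, 6.52, 4.86 and 4.29 against 0.185 in CD8 1, 0.119 in CD8 2 and 0.231 in γδT cells. Cxcr6, a receptor of tissue-resident lymphocytes, was the reverse, at 1.00, 0.699, 0.864, 0 and 0.596 in NK cells against 8.85 in CD8 1, 10.4 in CD8 2 and 8.93 in γδT cells. No NK tumor reached a T cell tumor for it.

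Of 11 markers of tissue-resident group 1 innate lymphoid cells (ILC1), 1 was higher and 6 lower than in CD8 1 cells, 2 and 5 in CD8 2, and 2 and 5 in γδT cells, beside 3.49% and 4.48%, 4.19% and 4.91%, and 5.19% and 4.02% of all genes. The median was -1.14 against CD8 1, -1.23 against CD8 2 and 0.23 against γδT cells. The last was -0.91 over the 10 genes other than Zfp683. That gene had 0 UMIs in γδT cells and 3 in NK cells, too few for a bound. The summed level was 13.9 to 31.3 in NK tumors and 51.0 to 59.5 in CD8 1 tumors. Itgae (CD103) averaged 0.973 in NK and 4.33 in CD8 1 cells, and Zfp683 (Hobit) had UMIs in 2 NK cells. Ctla2a was at 6.27 ± 1.39 in NK cells, higher than in CD8 2 and γδT cells, the latter call being lost to overlap without NK cells that held a CD3 or CD8 UMI (log2 difference 2.85 and then 2.69).

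T lineage genes were low in NK cells. Of 21 genes of the T cell receptor complex and T lineage, 14 were lower and 1 higher than in CD8 1 cells, 14 and 2 in CD8 2, and 9 and 2 in γδT cells, with medians of -2.81, -2.58 and -1.46. Of all genes, 4.48% were lower and 3.49% higher than in CD8 1, 4.91% and 4.19% in CD8 2, and 4.02% and 5.19% in γδT cells. Cd3e had NK levels of 0.278, 0.647, 0.385, 0.0378 and 0.636 and CD8 1 levels of 5.25, 5.99, 6.08, 4.72 and 5.37, and Cd3d averaged 0.318 against 4.17. Cd3g had NK levels of 0.497, 0.471, 0.279, 0.0768 and 3.39, with tumor 5 and its 6 cells far above the other 4, and CD8 1 levels of 6.19 to 6.88. Cd8a and Cd8b1 had UMIs in 5 and 1 NK cells, and Trac, the TCRα constant gene, in 7. Themis, a factor of thymocyte selection, averaged 0.268 in NK, 20.6 in CD8 1 and 0.565 in γδT cells.

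Unlike these, Trbc1, a TCRβ constant gene, was at 4.97, 4.69, 5.09, 4.95 and 7.56 in NK cells and 3.39, 3.86, 4.37, 3.68 and 2.43 in CD8 1 cells and was not lower in any comparison. Its near-identical neighbor Trbc2 was lower than in all 3, at 1.06 ± 0.182 against 5.02 in CD8 1, and counts may be split between them. Trdc, the TCRδ constant gene, had NK levels of 0.737, 0.443, 0.652, 0.670 and 1.79 and averaged 0.00707 in CD8 1, 0.0229 in CD8 2 and 4.99 in γδT cells, so that it was higher than in CD8 cells and lower than in γδT cells. Tcrg-C4 had UMIs in 25 NK cells, and its tumor levels were 1.56, 1.05, 0.516, 0 and 0.

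A small set of NK cells held abundant CD3. Over Cd3d, Cd3e, Cd3g, Cd8a and Cd8b1 together, 80 of 107 control NK cells had 0 UMIs, 19 had 1 or 2, 0 had 3 to 8, and 8 had 9 to 20. The latter came from 4 of the 5 tumors and had a median of 8770 UMIs, against 8688.5 for the cells with 0. Klrb1c was found in 8 of the 8 and Ncr1 in 5. Trdc was found in 6 of 8, against 21 of the 80 cells without CD3 or CD8 UMIs, and Tcrg-C2 in 6 of 8, against 0 of 80. Gzma was found in 0 of 8 against 53 of 80, and Eomes in 1 of 8 against 47 of 80. Among TAMs at a median of 12883 UMIs, 3.04% held a Cd3e UMI. The 8 cells were noticed in these data, and what they are was not tested.

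TGF-β signaling was the pathway the study followed in CD8 T cells. Of 20 genes, 0 were higher and 1 lower than in CD8 1, 1 and 2 in CD8 2, and 0 and 1 in γδT cells. These counts are near the 3.49% to 5.19% of all genes called in a direction. The medians were -0.10, -0.02 and -0.17, the last being -0.34 without the 3 genes at 0 in γδT cells. Tgfb1 had NK levels of 2.86, 6.83, 8.70, 7.97 and 8.14, with tumor 1 low, and CD8 2 levels of 8.71, 6.81, 4.94, 4.96 and 5.85. Smad3 was higher than in CD8 2, at 3.17 ± 0.958 against 1.15 ± 0.342. Tgfbr3, encoding the co-receptor betaglycan, was lower than in all 3, with UMIs in 4 NK cells and averages of 1.01 in CD8 1, 1.04 in CD8 2 and 1.96 in γδT cells. The inhibitory Smad7 was at 3.82 ± 1.63 in NK and 4.45 ± 0.669 in CD8 1 cells.

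The GC receptor gene Nr3c1 was expressed at 5.63, 6.26, 4.11, 3.50 and 5.54 in control NK cells. It averaged 8.10 in CD8 1, 7.94 in CD8 2 and 15.6 in γδT cells and was called lower than in γδT cells only, a call lost to overlap with summed UMIs (log2 difference -1.57 and then -1.50). Of 13 receptor and target genes, 2 were higher and 0 lower than in CD8 1, 2 and 1 in CD8 2, and 1 and 2 in γδT cells, counts too small to set apart from the 3.49% to 5.19% of all genes. The medians were 0.10, -0.10 and -0.08 (-0.30 without the 2 genes at 0 in γδT cells). Hsd11b1, whose enzyme regenerates active GC from its inert form, had NK levels of 2.37, 1.45, 1.99, 1.19 and 1.71 and averaged 0.668 in CD8 1, 0.395 in CD8 2 and 0.578 in γδT cells. It was higher in NK cells than in all 3, but the calls against CD8 1 and γδT cells were lost to overlap without NK cells that held a CD3 or CD8 UMI. The log2 differences were 1.28 and 1.46, and then 1.07 and 1.25. With 0.5 added in place of 0.1, the difference from CD8 1 fell under 2-fold, at 0.94. Zbtb16, encoding PLZF, averaged 0.443 in NK, 0.0144 in CD8 1 and 6.72 in γδT cells, and its calls against both CD8 clusters were lost to overlap in the same way (log2 differences 2.19 and 2.30, then 1.66 and 1.77) and fell under 2-fold with 0.5 added in place of 0.1.

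Markers of other cells were mostly near 0 or at T cell levels, with exceptions given below. Of 10 macrophage markers, 5 passed the filter on mean level, which a call required, and 0 were called in any comparison. Their summed level was 2.23 to 3.62 in NK tumors and 2.63 to 3.64 in CD8 1 tumors. Of 6 neutrophil markers 0 passed the filter, so that none could be called. Their sum was at most 0.200 in NK tumors. Of 9 melanoma and stroma markers 1 passed, Pecam1, which lymphocytes also express, at 1.65 ± 0.349. It was called against each CD8 cluster. Mlana, Pmel, Dct, Tyr and Tyrp1 had 0 UMIs. Of 9 markers of ILC2, mast cells and basophils 2 passed and 0 were called, and Il1rl1, Il5, Il13, Cpa3 and Fcer1a were at 0. Kit, on this list and the next, was found in 33.6% of NK cells. Its share was 0.774% of CD8 1, 12.3% of CD8 2 and 0% of γδT cells, and 11.3% of TAMs. Of 9 markers of helper-like ILC and ILC3, 6 were lower and 1 higher than in γδT cells, beside 4.02% and 5.19% of all genes. Against each CD8 cluster 2 were higher and 1 lower, beside 3.49% and 4.48%, and 4.19% and 4.91%. The 2 were Ncr1, also an NK marker, and Tmem176a, with log2 differences of 1.48 and 1.04. Both Tmem176a differences fell under 2-fold with 0.5 added in place of 0.1. In γδT cells Il17a averaged 8.49 and Il23r 8.20. In NK cells Il23r and Il17a had UMIs in 1 cell each. Of 7 B cell markers, Pax5 was at 0 and Cd79a had a UMI in 1 cell, but Ighm had UMIs in 39 NK cells at 0.722, 1.45, 0.694, 0.525 and 0.817 and was called against both CD8 clusters, the CD8 2 call being lost to overlap without NK cells that held a CD3 or CD8 UMI (log2 difference 2.49 and then 2.39). Of 18 cell cycle genes 5 passed and 0 were called, and Mki67 had UMIs in 3 NK cells.

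The control NK cells were not uniform. A UMI of Eomes was found in 59 cells (55.1%), in 12, 15, 13, 16 and 3 cells of tumors 1 to 5, leaving 16, 12, 15, 2 and 3 without one. In other clusters the share was highest in the CD4 cluster, at 11.5%, and was 6.67% in CD8 4, 4.09% in CD8 2 and 2.32% in CD8 1 cells. It was 0 of 723 TAMs, which allows a share of up to 0.415%. Cells with an Eomes UMI had a median of 9433 UMIs and those without 8146, and its part in the split was not tested. The split was made after these data were seen, and the shares that follow are after thinning to 2000 UMIs, over 59 and 47 cells.

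Of the genes compared, some were more often found in cells with Eomes. Gzma was found in 78.0% against 34.0% of cells, Prf1 in 71.2% against 31.9%, and Ccl5 in 62.7% against 34.0%. Itga2 was found in 52.5% against 19.1%, and Klra8 in 52.5% against 14.9%. Gzmc, another granzyme gene, went the other way, in 22.0% with against 38.3% without Eomes. Mean levels of the first 5 genes were higher with Eomes in each of tumors 1 to 4. In tumor 4 the comparison rests on 2 cells without Eomes, and tumor 5 was left out of this count.

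Others were more often found in cells without Eomes. Rora was found in 42.6% against 11.9% of cells with Eomes, Inpp4b in 61.7% against 23.7%, Itga1 (CD49a) in 44.7% against 27.1%, and Klrc1 in 57.4% against 35.6%. Tcrg-C4 was found in 25.5% against 0% and Cxcr6 in 14.9% against 3.39%. A T cell marker went with them, as Cd3e was found in 8.51% against 1.69% after thinning and in 20.8% against 3.39% at full depth. Itgae was found in 10.6% against 1.69% after thinning but in 10.4% against 8.47% at full depth, a contrast in share seen only after thinning. Of the 8 cells with abundant CD3 described above, 1 had an Eomes UMI and 6 had Tcrg-C4, so that most of them stood among the cells without Eomes, and their part in these shares was not tested. Rora, Itga1 and Klrc1 had a higher mean without Eomes in each of tumors 1 to 4, while Inpp4b did so in 3 of them and Cxcr6 and Tcrg-C4 were at 0 in both kinds of cell in tumor 4. Tbx21, shared by NK cells and ILC1, was found in 64.4% with and 42.6% without Eomes, at mean levels of 5.41 and 4.83. These are shares within 1 cluster drawn from the same genes, and no test was made.

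**Figure D4:**
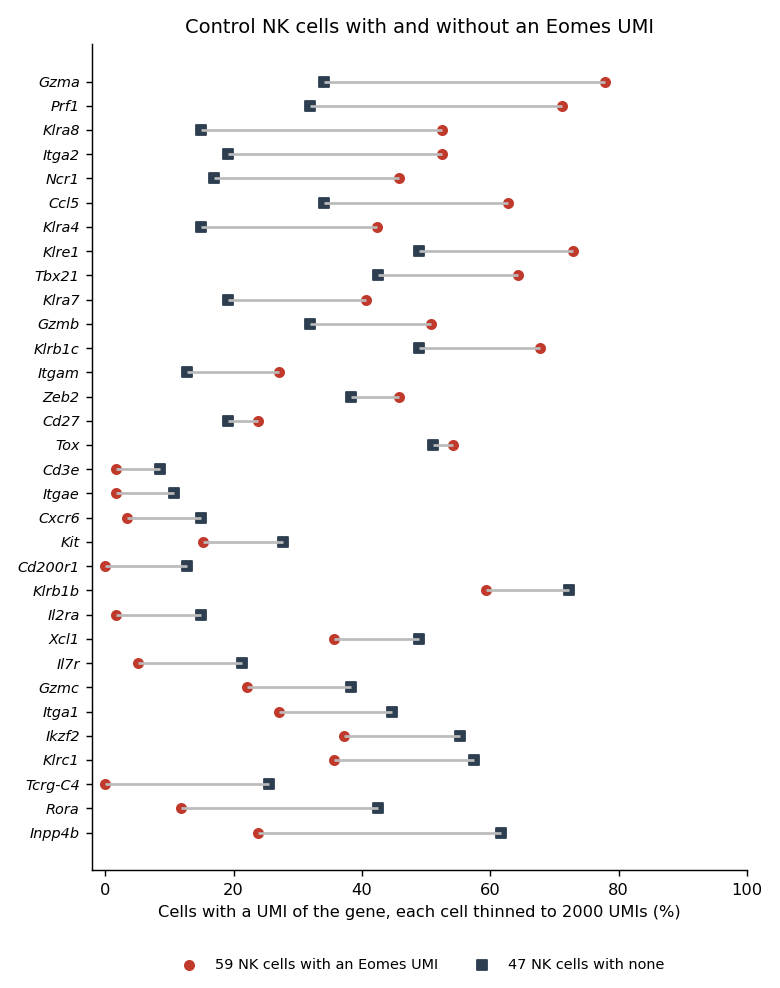
Share of control NK cells (%) with a UMI of each of 32 genes after thinning to 2000 UMIs, for 59 cells with an Eomes UMI at full depth (circles) and 47 without (squares). Gzma, Prf1 and Klra8 lie to the right with Eomes and Inpp4b, Rora and Tcrg-C4 to the right without.

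NK cells were then compared between treatments by their share. In control tumors 1 to 5 they made up 3.52%, 3.22%, 2.24%, 3.15% and 1.73% of CD45+ cells, and 7.98%, 6.57%, 4.45%, 7.14% and 3.85% of lymphoid cells (all T cell clusters and NK). In GC tumors 3 and 5 they were 2 of 111 and 2 of 79 CD45+ cells, or 3.51% and 4% of 57 and 50 lymphoid cells. GC tumors 1, 2 and 4 had 0 NK cells among 18, 75 and 22, which allows shares of up to 16.7%, 4% and 13.6%. They held only 9, 17 and 13 lymphoid cells, for which the limits are 33.3%, 17.6% and 23.1%. The GC values at 0 come from the tumors with the fewest lymphoid cells.

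The share of lymphoid cells was 6.00% ± 1.77 in control and 1.502% ± 2.06 in GC tumors (SD, n = 5 and 5, exact two-sided permutation test, p = 0.0159, 0.0238 adjusted over the 3 NK results by Benjamini-Hochberg (BH) and 0.0254 over the 8 lymphoid clusters). In that last adjustment 6 of the 8 clusters passed the threshold of 0.05, so a changed share was not particular to NK cells. The log2 ratio of NK to CD8 T cells (clusters CD8 1 to 3, 0.5 added to both) was -2.97 ± 0.693 and -4.16 ± 0.302 (exact permutation p = 0.00794, the smallest this design can give, 0.0238 adjusted). The share of CD45+ cells was 2.77% ± 0.753 in control and 0.867% ± 1.21 in GC tumors, with an exact permutation p of 0.0397, which was 0.0397 adjusted over the 3 and 0.106 over all 16 clusters. Of the 16 clusters, 4 passed the threshold, and NK was not among them. The CD45+ call over the 3 results was lost on leaving out control tumor 1, 2 or 4 or GC tumor 1, 2 or 4. None of the 3 differences passed the threshold of 0.05 when only tumors with 30 or more cells of the denominator were kept (adjusted p = 0.190 for each in the exact permutation test), and adding 1 in place of 0.5 ended the call on the ratio (adjusted p = 0.111). Leaving out the NK cells that held a CD3 or CD8 UMI, 27 in control and 0 in GC tumors, also ended all 3 calls, with adjusted exact permutation p of 0.111, 0.0952 and 0.0952 for CD45+ cells, lymphoid cells and the ratio.

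**Figure D5:**
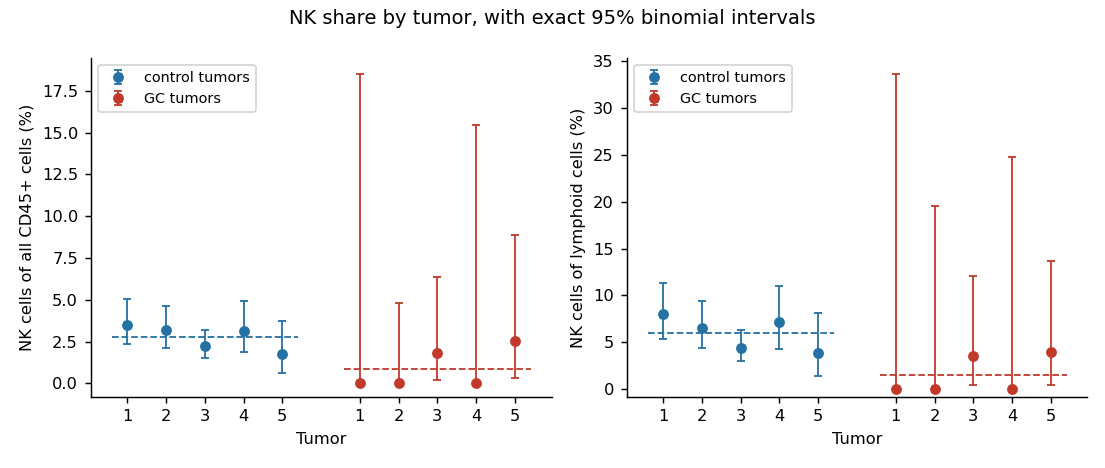
NK cells as a share (%) of all CD45+ cells (left) and of lymphoid cells (right) in the 5 control and 5 GC tumors; bars are exact 95% binomial intervals, which cover counting error only, and dashed lines the group means. The intervals of the GC tumors without NK cells reach above the control values.

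The 4 GC NK cells, 2 each from GC tumors 3 and 5, were deep, with 13121, 16060, 21818 and 28438 UMIs. The last was the deepest of all 4108 cells, and 16, 7, 1 and 0 control NK cells were deeper than each. They allow no test, and their UMIs are given in that order, with pooled levels and exact 95% Poisson intervals beside those of the pooled control NK cells. Some NK genes were found in all 4 cells and others were not. Klrb1c had 11, 18, 9 and 13 UMIs, Ncr1 2, 1, 4 and 3, Klrd1 18, 13, 10 and 14 and Fcer1g 4, 25, 17 and 10. Tyrobp had 6, 10, 0 and 20, the receptor gene Klre1 1, 17, 0 and 15 and Itga2 2, 0, 0 and 16. Cd3d, Cd3e, Cd3g, Cd8a, Cd8b1, Lyz2 and C1qa had 0 in all 4.

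Granule genes were held unevenly. Prf1 had 4, 5, 3 and 14 UMIs, 3.27 per 10000 (2.14 to 4.80) against 6.21 (5.73 to 6.71), and Nkg7 16, 12, 3 and 13, 5.54 per 10000 (4.02 to 7.44) against 8.23 (7.67 to 8.81), both found in all 4 cells. Serpinb9 had 14, 30, 52 and 1, 12.2 per 10000 (9.90 to 14.9) against 5.95 (5.48 to 6.44). Gzmb had 5, 9, 0 and 0, 1.76 per 10000 (0.964 to 2.96) against 6.37 (5.88 to 6.88), and Gzmc 8, 13, 1 and 0, 2.77 per 10000 (1.74 to 4.19) against 25.2 (24.2 to 26.2). These 2 granzymes were absent from the fourth cell, and Gzma and Ccl5 were each found in 1 cell. Gzma had 5, 0, 0 and 0 UMIs, 0.629 per 10000 (0.204 to 1.47) against 28.5 (27.5 to 29.6), and Ccl5 0, 0, 0 and 9, 1.13 per 10000 (0.518 to 2.15) against 16.3 (15.6 to 17.1). Ly49 UMIs sat in single cells, with 0, 0, 0 and 26 for Klra7, 0, 0, 0 and 15 for Klra9 and 0, 12, 0 and 0 for Klra5, and with 0 in all 4 for Klra4 and Klra8. Eomes had 1, 0, 0 and 9, so the cell with Klra7 was also the cell with most Eomes and Ccl5. The third cell carried most Rora (4, 28, 67 and 0) and Il7r (4, 2, 49 and 0), genes that in control tumors were more often found in cells without Eomes.

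Of the GC targets, Fkbp5 had 11, 11, 9 and 2 UMIs, 4.15 per 10000 (2.86 to 5.83) against 1.06 (0.869 to 1.28), and was found in all 4 cells. Per1 had 3, 3, 1 and 1, 1.01 per 10000 (0.435 to 1.98) against 0.330 (0.227 to 0.464). Tsc22d3, encoding GILZ, had 4, 2, 6 and 2, 1.76 per 10000 (0.964 to 2.96) against 1.67 (1.43 to 1.95), and the intervals of Per1 and of Tsc22d3 overlap those of the control cells. Dusp1 had 8, 61, 29 and 0, 12.3 per 10000 (10.0 to 15.0) against 3.82 (3.45 to 4.23), but 1 cell held 61 of its UMIs and 1 held 0. Rgs2 had 3, 7, 11 and 1, 2.77 per 10000 (1.74 to 4.19) against 3.79 (3.42 to 4.20), with overlapping intervals, and Sgk1 had 0 UMIs in the 4 cells against 0.240 per 10000 in control cells. The intervals cover counting error only, not the spread between cells or tumors, and the GC and control cells were different channels.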

How the data were processed

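Reads were mapped by the authors with Cell Ranger 7.1.0 to mm10, introns included. Hashtags were assigned in Seurat 5.0.3, cells with more than 1 hashtag or with outlying quality were removed, and clusters were named by the authors. Doublets within a tumor were not removed, and no further caller was run. The deposited expression values are natural log values of 1 plus UMIs per 10000, and the deposited cell table gives UMI counts, hashtag counts, the percent of mitochondrial UMIs, tumor and cluster. Whole UMIs were recovered from the log values (100% within 0.01 of a whole number).

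Levels were averaged over cells of a class per tumor, in Python 3.11.15 with numpy 2.4.6, scipy 1.17.1 and pandas 2.3.3. Calls needed a 2-fold difference of log2(level + 0.1), no overlap between tumors and a mean of 0.2 per 10000 over the 4 classes. The rule was run on simulated UMIs with counting noise only and no spread between tumors, so that run does not measure its error in these data. Shares were compared over 5 and 5 tumors by exact permutation tests with BH adjustment. Intervals are exact (95%), and a count of 0 was given a limit of 3 cells or UMIs. Intervals and limits cover counting error only. Each hashtag marks 1 tumor, so the spread is that between tumors, within 1 channel per group.

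Named were the 4 markers, per list up to 6 called genes of largest difference from CD8 1 and up to 4 uncalled ones of highest level, all T cell receptor, CD3 and CD8 genes, the 10 leading genes each way, and defining genes of other cell types near 0 in NK cells. Itga1, Mki67, Fkbp5, Per1 and Sgk1, and genes under other observations, were named after their values were seen. Members and lists were chosen with earlier results of these data known. Promoters and gene positions came from RefSeq (GRCm38.p6) and GENCODE.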

Additional observations from a re-analysis of the deposited data

Results flagged for a closer look

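In 14 of 140 groups of 5 tumors, the highest or lowest NK value stood apart by Dixon's criterion (gap over range above 0.71, gene levels on the log2 scale). The groups were named genes in the control tumors, and the 3 NK share results in the control and in the GC tumors. For normally distributed values chance flags about 1 group in 20. A gene at 0 in all tumors but 1 is always flagged, so the number flagged cannot be set against that rate. All 14 are gene levels per 10000 in control NK cells, and no explanation was tested.

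Of receptor and adhesion genes, Klra7 was 11.5 in tumor 5 and 3.77 to 4.39 in the others. Tumor 5 rests on 6 NK cells, 83.3% of which held a Klra7 UMI. Itgb1, the β1 integrin chain, was 13.5 in tumor 1 and 7.41 to 7.98 elsewhere. Serpinb9 was 8.48 in tumor 3 and 4.71 to 5.06 elsewhere. Trbc1 was 7.56 in tumor 5 and 4.69 to 5.09 elsewhere.

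Of TGF-β genes, Tgfb1 was lowest in tumor 1, at 2.86 against 6.83 to 8.70. Skil, encoding the SMAD co-repressor SnoN, was lowest in tumor 5, at 1.08 against 3.09 to 3.87. In tumor 4, Bcl11b and Cxcr6 were 0, against 0.201 to 0.372 and 0.596 to 1.00 in the others. Tumor 4 was also the tumor with 16 of 18 NK cells holding an Eomes UMI.

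The other 6 are genes near 0 in NK cells. Fam169b was 0.279 in tumor 5 and at most 0.0216 elsewhere. Cd8b1 was 0.0494 and Il17a 0.0796 in tumor 4, Gzmf 0.0425 in tumor 1, Il23r 0.0247 in tumor 2 and Plcg1 0.130 in tumor 3. Each of these 5 was 0 in the other 4 tumors.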

How the results depend on the processing

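For the shares, differences are GC minus control with adjusted exact permutation p. Without NK cells that held a CD3 or CD8 UMI they were -1.18 percentage points for the NK share of CD45+ cells (0.111), -2.91 for the NK share of lymphoid cells (0.0952) and -0.78 for the log2 ratio of NK cells to CD8 T cells (0.0952). With only tumors of 30 or more cells they were -1.33, -2.24 and -1.03 (0.190 each). With 1 added the ratio was -0.57 (0.111), and the CD45+ difference of -1.90 had 0.106 over all 16 clusters, an adjustment added after seeing the data. Leaving out 1 tumor gave -2.32 to -1.69 of CD45+ cells, above 0.05 (adjusted p = 0.0794 in the exact permutation test) without control tumor 1, 2 or 4 or GC tumor 1, 2 or 4. The lymphoid share (-5.12 to -4.00) and the ratio (-1.38 to -1.04) stayed under 0.05 without any 1 tumor. Other than by fewer cells or tumors, causes were not tested.

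With 0.5 added to levels, 138 genes were lower than in CD8 1, and 154 were higher and 200 lower than in CD8 2. A minimum mean of 1, which tests 2216 genes, left 92 higher and 139 lower than in CD8 1, 99 and 179 in CD8 2, and 153 and 146 in γδT cells. The other 55 counts were within 1.5 times the reported ones. Without 1 control tumor, the counts were 242 to 255 higher and 282 to 353 lower than in CD8 1, 284 to 311 and 344 to 378 in CD8 2, and 416 to 447 and 304 to 327 in γδT cells. A minimum of 10 cells left 1 γδT tumor and gave no value there. Of differences of single named genes 0 reversed under an alternative, 4622 values stayed and 274 moved by more than the spread between tumors, and 124 of 153 shares moved on thinning.

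No paired analysis was possible because the tumors of the 2 groups are different animals and the labels give them no shared numbers. Tumor 5 with 6 NK cells, γδT cells with 5 to 13 a tumor and 3 GC tumors with under 20 lymphoid cells limit precision.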

Other observations

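Genes outside the lists used above, chosen after their values were seen, were also higher in control NK cells than in CD8 1, CD8 2 and γδT cells alike, as 1.52% of tested genes were. Among growth factors of vessels, Vegfa had NK levels of 0.930, 1.62, 1.70, 0.910 and 1.48 in tumors 1 to 5 and averaged 0.212 in CD8 1, 0.173 in CD8 2 and 0.132 in γδT cells. Vegfc, which acts on lymphatic vessels, had NK levels of 1.15, 1.28, 0.453, 0.915 and 0.928 and UMIs in 36 NK cells, with 0 UMIs in the 3 other classes. Pdgfb, a growth factor of mesenchymal cells, had NK levels of 1.06, 0.770, 0.737, 0.491 and 0.621 and averaged 0.160 in CD8 1, 0.257 in CD8 2 and 0.0284 in γδT cells. All 3 were found in all 5 tumors.

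Survival genes of opposite action were both higher. Bcl2, which protects from apoptosis, had NK levels of 18.2, 13.4, 22.5, 16.4 and 10.6 against 7.6 in CD8 1, 4.23 in CD8 2 and 6.97 in γδT cells. Bcl2l11, encoding the pro-apoptotic BIM, had NK levels of 6.67, 7.73, 9.26, 9.91 and 6.01 against 1.06 in CD8 1, 2.52 in CD8 2 and 0.510 in γδT cells. Clnk, an adaptor of the SLP-76 family, was at 7.14, 7.47, 8.96, 6.5 and 5.51 against 0.105 in CD8 1, 0.0146 in CD8 2 and 2.36 in γδT cells. Myb, a transcription factor of progenitors, was at 1.14, 0.368, 1.71, 1.14 and 2.50 against 0.00381 in CD8 1, 0.0278 in CD8 2 and 0.0241 in γδT cells, with tumor 5 highest.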
